A study of Polyandrocarpa zorritensis and Clavelina lepadiformis with 36 samples.

Results

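The transcripts of cytosolic ribosomal proteins were followed through the life cycle of 2 colonial tunicates, *Polyandrocarpa zorritensis* and *Clavelina lepadiformis*. Both species bud asexually and form dormant structures, spherules in *P. zorritensis* and winter buds in *C. lepadiformis*, that later germinate into new zooids. Members were all ortholog pairs (best reciprocal matches between the species) whose human annotation was a numbered large (RL) or small (RS) subunit protein, a stalk protein (RLA0 to RLA2) or the laminin-receptor-type protein RSSA. The rule took 43 of the 4424 pairs in the deposited table. It used names and no expression values. The 43 pairs carried 43 different human names, and the name was the same in both species for all 43. Of them, 25 were large subunit proteins and 17 were small subunit proteins. The remaining pair, RSL1D1 (entry RL1D1), is a nucleolar factor of ribosome assembly and not a structural protein, so it was taken by its name alone and is described apart. Genes are given by human symbol (RPS15 for the entry RS15, RPLP0 for RLA0). No pair carried the name of RPLP1, RPLP2, RPSA or the ubiquitin fusions RPS27A, RPL40 and RPS30, although the rule would have taken them. Whether their transcripts were present outside the pairs was not examined.

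RNA sequencing covered 36 samples, 18 per species, from colonies for which no genetic or drug treatment is named. For each species there were 3 samples each of zooids (the feeding adults), stolons (vascular outgrowths), pre-buds (budding nests or chambers) and the dormant stage. There were 6 samples of the germinating stage, 3 at 18 °C and 3 at 24 °C, all taken after 48 h and averaged together by the authors. Each sample pooled tissue of several specimens. Dormant *P. zorritensis* spherules were frozen straight from the field in spring, while its other stages grew in the laboratory from material of the same rope, so dormancy and field collection cannot be told apart in that species. All *C. lepadiformis* tissue came from a single laboratory colony.

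Values were the authors' mean per stage of TPM (abundance relative to all transcripts, corrected for length) scaled by TMM, a factor per library that sets the bulk of transcripts level. With 1 mean per stage there was no replicate spread, so no difference below was tested, no error can be given, and "higher" and "lower" compare authors' means. The read depth of each library is unknown. Differences are log2 ratios of means after adding 1, where 1.00 is a 2-fold difference. They are set beside all transcripts of the species that reached a mean of 5 in at least 1 of the stages compared. All tissue was bulk, so fewer cells of a type and less RNA per cell cannot be told apart.

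The zooid label was checked with markers of ciliated and digestive organs of the zooid. All 4 measured cilium pairs were highest in zooids in both species, with summed levels of 189 in *P. zorritensis* zooids against at most 5.33 in its other stages, and 192 in *C. lepadiformis* zooids against at most 2.03. Of 5 digestive enzyme pairs, 2 were highest in zooids in each species. The summed level of all transcripts differed between stages after the scaling. It was 687867, 806444, 929263, 1570747 and 1039981 in *P. zorritensis* zooids, stolons, pre-buds, dormant and germinating spherules. In *C. lepadiformis* the same stages summed to 772480, 741785, 845295, 807063 and 1274782. The dormant *P. zorritensis* sum included 1 transcript at 145114, or 9.24% of the stage, against 1.83% to 2.63% for the highest transcript of its other stages. These sums bear on every ratio below, and results are therefore also given with each stage rescaled to a sum of 1000000. Such a rescaling multiplies every transcript of a stage by the same factor. It can change the distance between members and other transcripts only through the added 1, so that distance is no separate check of the scale. No rescaling left out the transcript at 145114.

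The cytosolic ribosome joins a small subunit, which reads the messenger RNA, to a large subunit, which forms the peptide bond. Its proteins are needed in equal numbers and are stable. In vertebrates their messenger RNAs start with a pyrimidine tract that lets the TOR pathway hold or release their translation as a group, so their transcript level and their rate of synthesis can part. RSL1D1 and other assembly factors act in the nucleolus, where ribosomal RNA and proteins come together.

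Ribosomal protein transcripts were among the most abundant RNAs of every stage. Between 37 and 42 of the 43 members ranked among the 100 highest of 27938 *P. zorritensis* transcripts in each stage, and 41 ranked among the 100 highest of 18610 *C. lepadiformis* transcripts in all 5 stages. The median member in *P. zorritensis* had 1378 TMM-scaled TPM in zooids, 2291 in stolons, 3172 in pre-buds, 4635 in dormant spherules and 3648 in germinating spherules. Its *C. lepadiformis* counterpart had 1730 in zooids, 2297 in stolons, 3049 in pre-buds, 2417 in winter buds and 5037 in germinating winter buds. The highest of the medians thus stood in the dormant stage of *P. zorritensis* and in the germinating stage of *C. lepadiformis* on the scale as deposited.

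**Figure D1:**
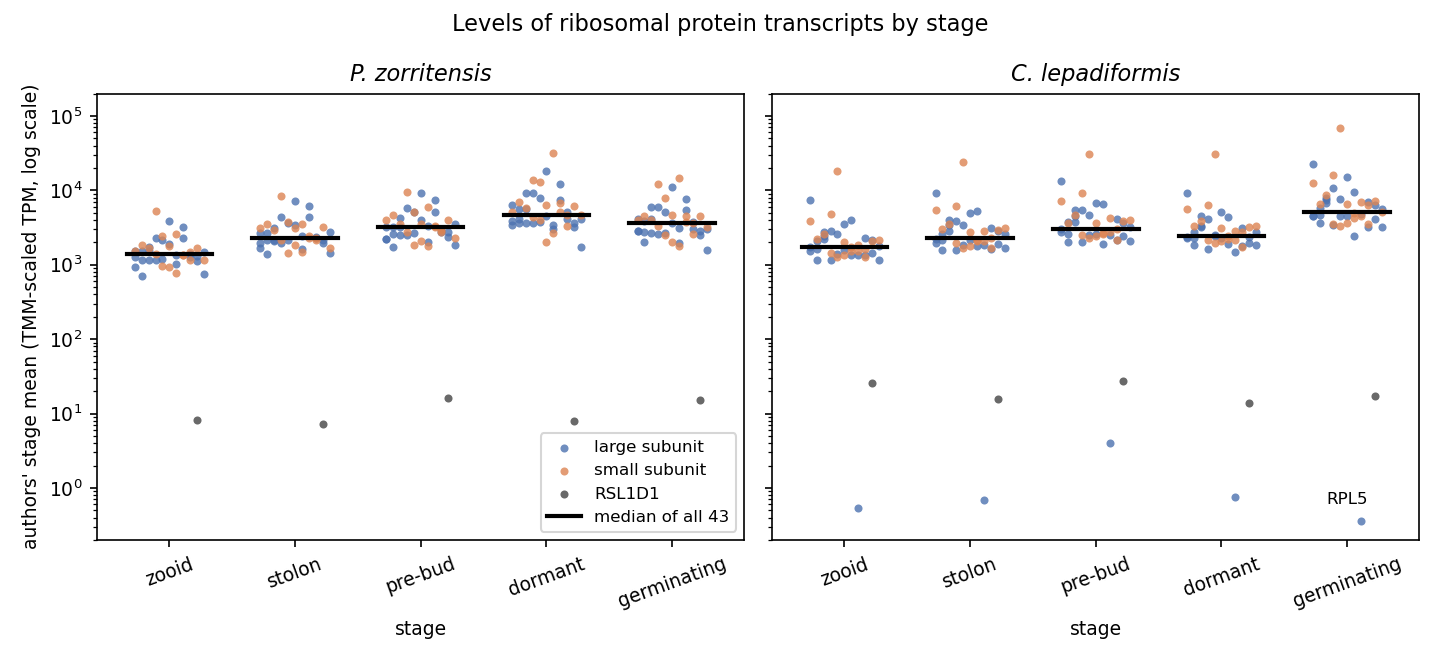
Each point is 1 member, placed by stage on the x axis and by the authors' mean TMM-scaled TPM on a log y axis, with bars at the median of all 43. The medians peak at 4635 in dormant *P. zorritensis* and at 5037 in germinating *C. lepadiformis*, while RSL1D1 and the *C. lepadiformis* RPL5 transcript lie far below the others.

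The spread of the structural members within a stage was widest in the late stages. In *P. zorritensis* the highest of the 42 was between 5.38 and 7.39 times the lowest in zooids, stolons and pre-buds, but 17.9 times in dormant spherules and 9.43 times in germinating ones. RPS15 was the highest member in both of those last stages. In *C. lepadiformis* the same ratio ran between 15.4 and 28.1 over the 41 structural members that reached a mean of 5, and RPS12 was the highest in every stage.

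A single structural member, the transcript paired as RPL5, was close to 0 in *C. lepadiformis*. It may not be the main RPL5 transcript of that species, which was not examined. RPL5 carries the smallest ribosomal RNA into the large subunit. The paired *C. lepadiformis* transcript had only 0.537 in zooids, 0.690 in stolons, 4.08 in pre-buds, 0.745 in dormant winter buds and 0.359 in germinating winter buds. Its *P. zorritensis* partner was among the 5 highest members, at 3167 in zooids, 6248 in stolons, 7472 in pre-buds, 12068 in dormant spherules and 7748 in germinating spherules. The *C. lepadiformis* values never reached 5, so the counts of members in that species are over the other 42. Medians and summed levels are over all 43, and without RPL5 each median of the comparisons was within 0.1 of the value given.

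The most abundant members came from both subunits. RPS15 of the small subunit head, which in human cells is needed to export the young small subunit from the nucleus, had the highest average over stages in *P. zorritensis* (11610.2). Its means were 2571 in zooids, 3531 in stolons, 5942 in pre-buds, 31268 in dormant spherules and 14740.3 in germinating spherules. In *C. lepadiformis* RPS15 had 1730.1 in zooids, 2148 in stolons, 2672 in pre-buds, 2417 in dormant winter buds and 5031 in germinating winter buds, and showed no such peak in the dormant stage.

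RPL37A and RPS27 are small zinc-binding proteins of the large and the small subunit. In *P. zorritensis* RPL37A had 3876 in zooids, 7076 in stolons, 9249.9 in pre-buds, 18428 in dormant spherules and 11085 in germinating spherules. In *C. lepadiformis* RPL37A had 3528 in zooids, 4882 in stolons, 6739 in pre-buds, 5049 in dormant winter buds and 14871 in germinating winter buds. The gene was thus among the 5 highest in both species, with its peak in a different stage of each.

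RPS27 in *P. zorritensis* had 5229 in zooids, 8449 in stolons, 9434 in pre-buds, 13965 in dormant spherules and 12032 in germinating spherules. In *C. lepadiformis* RPS27 had 4738 in zooids, 6185 in stolons, 9179.9 in pre-buds, 6261 in dormant winter buds and 16192 in germinating winter buds. On the deposited scale, the germinating mean stood above the dormant one in *C. lepadiformis* alone.

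RPS12 sits at the beak of the small subunit. In *P. zorritensis* it had 2443 in zooids, 3776 in stolons, 5089 in pre-buds, 12753 in dormant spherules and 7899 in germinating spherules. In *C. lepadiformis* it was the highest of all members, at 18087 in zooids, 24085 in stolons, 30371 in pre-buds, 30484 in dormant winter buds and 68676 in germinating winter buds. There its dormant and pre-bud means were almost equal, and it was the single member with a dormant mean above the pre-bud mean.

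RPL27A, a large subunit protein, was the second highest in *C. lepadiformis*, at 7461 in zooids, 9259 in stolons, 13304 in pre-buds, 9238 in dormant winter buds and 22283 in germinating winter buds. Its *P. zorritensis* transcript had 939 in zooids, 1669 in stolons, 2199 in pre-buds, 3912 in dormant spherules and 2838 in germinating spherules. RPS23, which lies at the decoding centre of the small subunit, was the fifth highest in *C. lepadiformis*, at 3886 in zooids, 5485 in stolons, 7155 in pre-buds, 5611 in dormant winter buds and 12503 in germinating winter buds. In *P. zorritensis* RPS23 had 1535 in zooids, 3106 in stolons, 3929 in pre-buds, 5038 in dormant spherules and 4049 in germinating spherules.

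Most members ranked the 5 stages in a single order in each species. In *P. zorritensis* 31 of the 43 ran zooid, stolon, pre-bud, germinating, dormant, counted upwards. Another 9 exchanged pre-bud and germinating. All 42 structural members were lowest in zooids, and 40 were highest in dormant spherules. Of all *P. zorritensis* transcripts that reached a mean of 5, 22.6% were lowest in zooids and 24.4% were highest in dormant spherules. With stages rescaled to equal sums, 7 members were highest in dormant spherules, 22 in pre-buds, 13 in germinating spherules and 1 in stolons. As deposited, the 3 members highest in pre-buds were RPL7A, RPS4X and RSL1D1.

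In *C. lepadiformis* 34 of the 42 members that reached 5 ran zooid, stolon, dormant, pre-bud, germinating. RPL22, RPL23, RPL24, RPL27A and RPL34, all of the large subunit, exchanged stolon and dormant. In all, 41 members were highest in germinating winter buds and 40 were lowest in zooids. The corresponding shares over all *C. lepadiformis* transcripts that reached 5 were 22.2% highest in germinating winter buds and 29.4% lowest in zooids. With stages rescaled to equal sums, 32 were highest in germinating winter buds. As deposited, the members not lowest in zooids were RPL35A and RSL1D1.

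**Figure D2:**
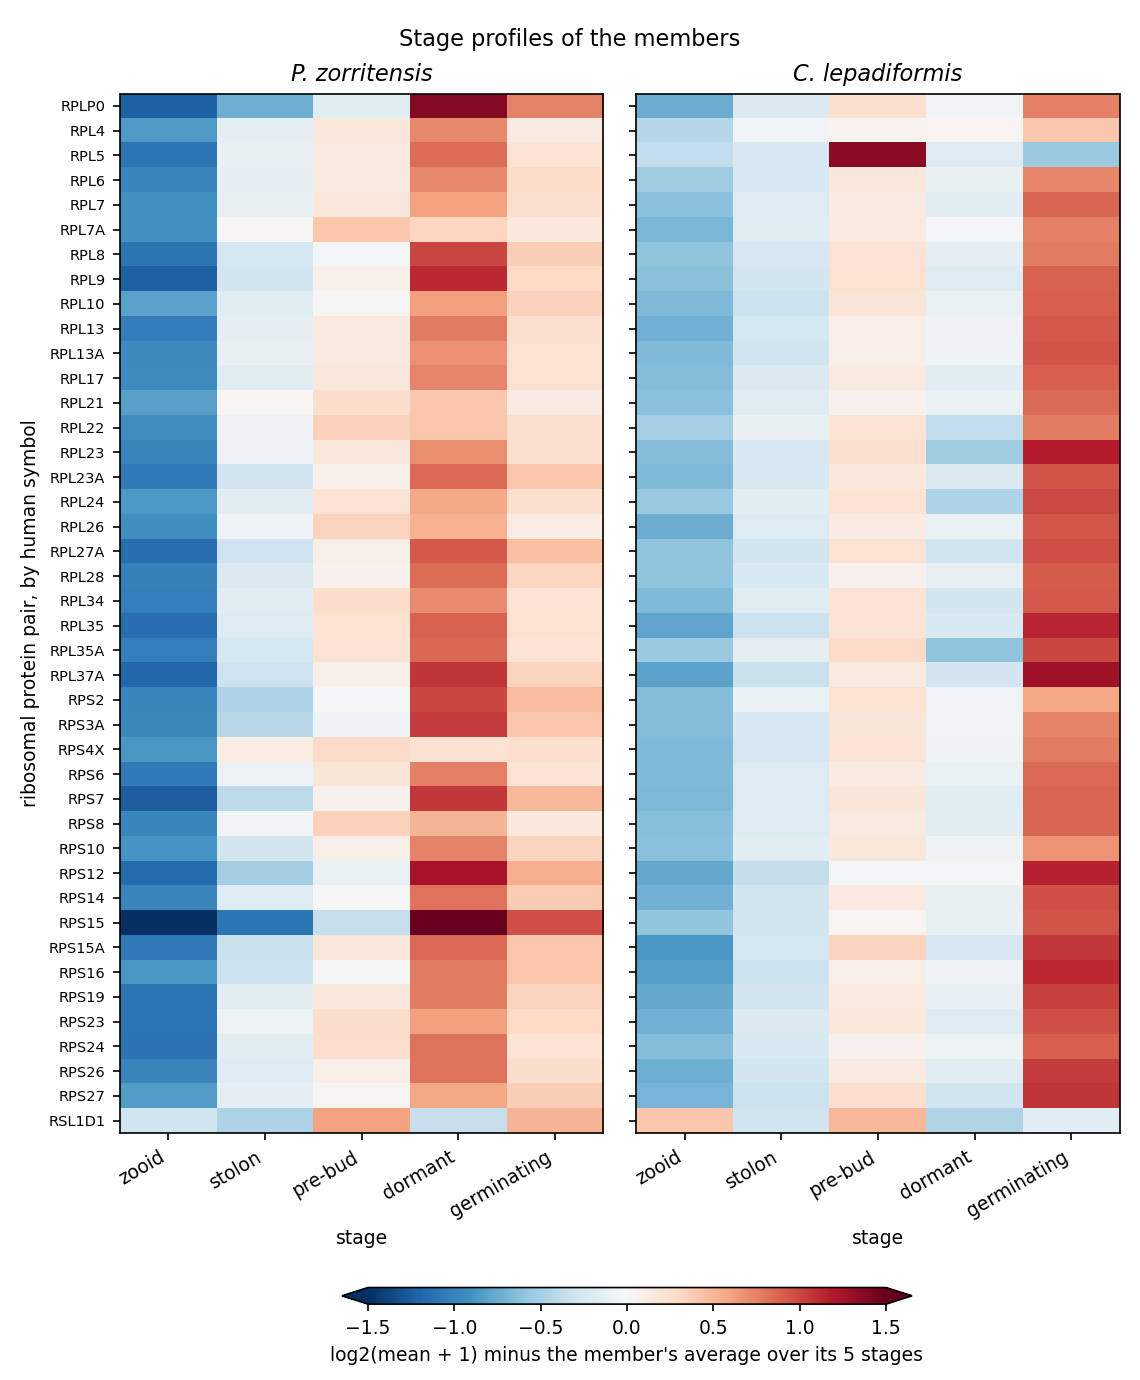
Rows are 42 of the 43 members and columns the 5 stages of each species, with colour giving log2(mean + 1) minus that member's own average over its stages. Of all 43, zooids are the lowest stage for 42 members in *P. zorritensis* and for 40 in *C. lepadiformis*, and the darkest red column is the dormant stage in the first species and the germinating stage in the second, although with stages rescaled to equal sums 7 members, not 40, are highest in dormant *P. zorritensis*.

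Dormant spherules of *P. zorritensis* had far more ribosomal protein RNA than zooids on the scale as deposited. The median log2 ratio over the 43 members was 1.80, a 3.49-fold difference, against -0.15 over 18058 transcripts. All 42 structural members were at least 2-fold higher in dormant spherules and none was 2-fold lower, where 19.9% of all transcripts were 2-fold higher and 27.7% were 2-fold lower. With stages rescaled to equal sums the median was 0.61, with 41 of 43 members above 0 and 6 at 2-fold, while the median of all transcripts was -1.24. The distance between members and all transcripts was 1.85 after that rescaling.

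RPS15 stood apart with a ratio of 3.60. Next came RPLP0 at 2.60, RPS12 at 2.38 and RPL9, a large subunit protein, at 2.35. The smallest ratios among structural proteins were 1.11 for RPS4X, 1.22 for RPL21 and 1.23 for RPL7A. RSL1D1 was at -0.04. RPS4X, whose human gene lies on the X chromosome and escapes inactivation, had a ratio of -0.09, the opposite direction, when stages were rescaled to equal sums.

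RPLP0 is the base of the stalk that calls elongation factors to the large subunit, and the other stalk proteins had no pair. In *P. zorritensis* it had 1519.9 in zooids, 2142 in stolons, 3201 in pre-buds, 9243 in dormant spherules and 5979 in germinating spherules. In *C. lepadiformis* it had 2769 in zooids, 3982 in stolons, 5478 in pre-buds, 4517 in dormant winter buds and 7814 in germinating winter buds. Its dormant mean was the highest in the first species and between those of stolons and pre-buds in the second. RPS6, the small subunit protein phosphorylated by S6 kinase downstream of TOR, had 763 in zooids, 1483 in stolons, 1784 in pre-buds, 2673 in dormant spherules and 1806 in germinating spherules in *P. zorritensis*. In *C. lepadiformis* RPS6 had 1505 in zooids, 2058 in stolons, 2588 in pre-buds, 2229 in dormant winter buds and 4279 in germinating winter buds, and its order of stages was that of the majority of members in both species.

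Against stolons, dormant *P. zorritensis* had a median member ratio of 0.92, beside -0.02 over 16255 transcripts. All 43 members were above 0, and 19 were at least 2-fold higher and none 2-fold lower, where 19.2% of all transcripts were 2-fold higher and 22.5% 2-fold lower. Rescaling to equal sums took the median to -0.04, with 20 of 43 members above 0 and 2 at 2-fold. The median of all transcripts was then -0.90, and the distance between members and all transcripts was 0.85. The direction of the members' median ratio therefore depends on the scale. RPS15 (3.15), RPLP0 (2.11), RPS12 (1.76) and RPS2 (1.46), a protein of the messenger RNA entry side, had the highest ratios. RPS4X (0.11), RSL1D1 (0.12), RPL7A (0.30) and RPL21 (0.38) had the lowest.

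Against pre-buds the median in dormant *P. zorritensis* was 0.61, beside -0.02 over 15477 transcripts. There were 40 members above 0. At 2-fold 8 members were higher and none lower, where 16.8% of all transcripts were higher and 16.3% lower. After rescaling to equal sums the median was -0.14, with 14 members above 0 and 1 at 2-fold. The median of all transcripts was then -0.71, and the distance between members and all transcripts was 0.57. The highest ratios as deposited were those of RPS15 (2.40), RPLP0 (1.53), RPS12 (1.33) and RPS3A (1.11). Those of RSL1D1 (-0.94), RPL7A (-0.08), RPS4X (-0.06) and RPL22 (0.08), an RNA-binding large subunit protein, were the lowest.

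On the deposited scale, the median ratios of dormant *C. lepadiformis* winter buds to the other tissues were nearer 0 than those of dormant *P. zorritensis* spherules. Rescaled to equal sums, the median against pre-buds was further from 0 in *C. lepadiformis*, at -0.21, than in *P. zorritensis*, at -0.14. Against zooids the median member ratio was 0.53, a 1.44-fold difference, beside -0.08 over 13978 transcripts. None of the 42 members that reached a mean of 5 was 2-fold higher or lower, where 16.8% of all transcripts were 2-fold higher and 22.5% 2-fold lower. The median was 0.47 after rescaling to equal sums. Among the highest were RPS16 (0.76), which reaches the tRNA site of the small subunit, RPS12 (0.75) and RPLP0 (0.71). Lowest were RSL1D1 (-0.86), RPL35A (-0.04), RPL24 (0.11), which bridges the subunits, and RPL23 (0.12).

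Against stolons the *C. lepadiformis* median was 0.09, beside -0.03 over 11707 transcripts. No member was 2-fold higher or lower, and few transcripts of any kind were, at 3.57% higher and 5.51% lower. Rescaled to equal sums, the median was -0.02 with 16 of 42 members above 0, so it lay near 0 on both scales. RPS12 (0.34), RPS16 (0.26) and RPL13A (0.24) were among the highest. RPL35A (-0.47), RPL23 (-0.30), RPL24 (-0.29) and RPL22 (-0.25) were lowest.

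Against pre-buds dormant winter buds had a median of -0.28, beside -0.03 over 12020 transcripts. As deposited, 41 of the 42 members that reached 5 were below 0, and none was 2-fold higher or lower. Among all transcripts 7.85% were 2-fold higher and 7.81% 2-fold lower. The median was -0.21 after rescaling to equal sums. RSL1D1 (-0.94), RPL35A (-0.88), RPL23 (-0.77) and RPL24 (-0.66) were lowest of the members that reached 5. RPS12 (0.01), RPL4 (-0.02) and RPS24 (-0.13) were among the highest.

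RPL35A, which in humans is needed to process the large subunit's ribosomal RNA, had the lowest ratios of dormant to zooid, stolon and pre-bud among structural members of *C. lepadiformis* that reached 5. It had 2588 in zooids, 3471 in stolons, 4633 in pre-buds, 2514 in dormant winter buds and 7641 in germinating winter buds. RPL23, which lies on the face between the subunits, had 1359.8 in zooids, 1821 in stolons, 2518 in pre-buds, 1480.4 in dormant winter buds and 4828 in germinating winter buds. Both were lower in winter buds than in stolons and pre-buds, and both were highest in germinating winter buds. In *P. zorritensis* RPL35A had 2145 in zooids, 3661 in stolons, 5085 in pre-buds, 7974 in dormant spherules and 5049 in germinating spherules, with its highest mean in the dormant stage.

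Germination went in opposite directions in the 2 species on the deposited scale. In *P. zorritensis* the median ratio of germinating to dormant spherules was -0.46, a 0.726-fold level, beside -0.02 over 15077 transcripts. There 41 members were below 0 and 1, RPS15, was 2-fold lower, with none 2-fold higher. Of all transcripts 12.7% were 2-fold higher and 14.4% 2-fold lower. Rescaled to equal sums the median was 0.13, with 31 of 43 members above 0, so this direction also depends on the scale. All transcripts then had a median of 0.51, and the members' median minus this was -0.38.

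The lowest *P. zorritensis* ratios of germinating to dormant were those of RPS15 (-1.08), RPL9 (-0.82), RPL37A (-0.73) and RPS12 (-0.69). RSL1D1 (0.85) and RPS4X (0.02) were above 0, followed by RPL7A (-0.16) and RPL22 (-0.17). RPS15, RPS12 and RPL9 thus stood at the extremes of both the dormant-to-zooid and the germinating-to-dormant ratio, which share the dormant mean. RPS4X had 927 in zooids, 1844 in stolons, 2075 in pre-buds, 1997 in dormant spherules and 2029.8 in germinating spherules, with the last 4 stages close to each other. RPL7A had 743 in zooids, 1420.1 in stolons, 1849 in pre-buds, 1747 in dormant spherules and 1563 in germinating spherules.

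In *C. lepadiformis* the median ratio of germinating to dormant winter buds was 1.04, a 2.05-fold difference, beside a median within 0.01 of 0 over 11852 transcripts. Of the 42 members that reached 5, 25 were at least 2-fold higher in germinating winter buds and none was 2-fold lower, where 9.22% of all transcripts were 2-fold higher and 7.25% 2-fold lower. Rescaled to equal sums, the median was 0.38 with 39 of 42 members above 0, but 1 member at 2-fold. All transcripts then had a median of -0.61. RPL23 (1.70), RPL35A (1.60), RPL37A (1.56) and RPL24 (1.46) were highest. The lowest of the members that reached 5 were RSL1D1 (0.28), RPL4 (0.38), RPS2 (0.62) and RPS10 (0.72), a protein of the messenger RNA entry channel.

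**Figure D3:**
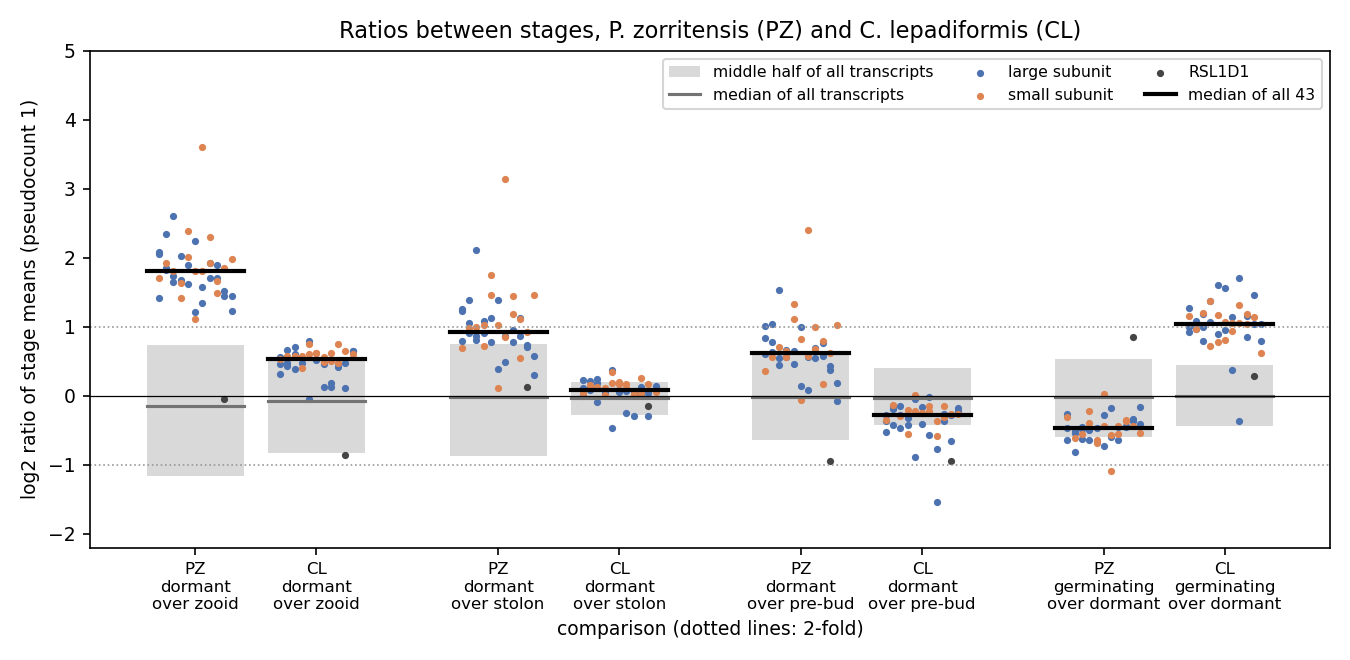
Points are members, placed by their log2 ratio of stage means (y axis) in 4 comparisons for each species (x axis). Grey boxes span the lower to the upper quartile of all transcripts that reached a mean of 5, and black bars mark the members' median, which is 1.80 for dormant over zooid in *P. zorritensis* and 1.04 for germinating over dormant in *C. lepadiformis*.

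The structural members had ratios close to each other. The distance between their quartiles was 0.38 for dormant over zooid in *P. zorritensis*, where it was 1.91 over all transcripts. The same distance was 0.16 in *C. lepadiformis*, beside 1.39 over all transcripts. Over the 8 comparisons it lay between 0.14 and 0.39. Large and small subunit proteins had similar medians, at 1.70 and 1.81 for dormant over zooid in *P. zorritensis* and 1.04 and 1.06 for germinating over dormant in *C. lepadiformis*. The widest gap between the subunits was in dormant over stolon of *P. zorritensis*, at 0.87 for the large and 1.02 for the small.

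Other abundant transcripts had ratios in the same directions. The *P. zorritensis* transcripts with an average level within the range of the structural members numbered 57 beside the members, and 6 of them were in the table of pairs. Of these 57, 91.2% were at least 2-fold higher in dormant spherules than in zooids, with a median ratio of 2.14, above that of the members. Their median for germinating over dormant was -0.67. In *C. lepadiformis* 35 such transcripts, 3 of them in pairs, had a median of 1.08 for germinating over dormant, and 57.1% were 2-fold higher. The level range was chosen after the values were seen, it uses the stages compared, and most of these transcripts have no name here, so ribosomal proteins outside the pairs may be among them. For dormant over zooid in *P. zorritensis* the quartiles of these transcripts were 1.59 and 5.25, and the members' median lay between them. The same held for germinating over dormant in *C. lepadiformis*, with quartiles of 0.71 and 1.38. For germinating over dormant in *P. zorritensis* the quartiles were -1.123 and -0.472. There the members' median of -0.463 lay just outside, nearer 0.

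As a share of the summed level of all transcripts kept in the assembly, the members differed less between stages than their levels did. Their summed level in *P. zorritensis* was 68595 in zooids, 119366 in stolons, 151880 in pre-buds, 266425 in dormant spherules and 180991 in germinating spherules. That was 9.97%, 14.8%, 16.3%, 17.0% and 17.4% of the summed level of each stage in the same order. Zooids had the smallest share, and the other stages lay between 14.8% and 17.4%. The dormant total includes the 1 transcript that made up 9.24% of it, which lowers the share of the members there. In *C. lepadiformis* the summed level was 104263 in zooids, 140000 in stolons, 184915 in pre-buds, 150842 in winter buds and 331835 in germinating winter buds. The shares were 13.5%, 18.9%, 21.9%, 18.7% and 26.0%. Dormant winter buds therefore had a share close to that of stolons, and germinating ones had the greatest.

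**Figure D4:**
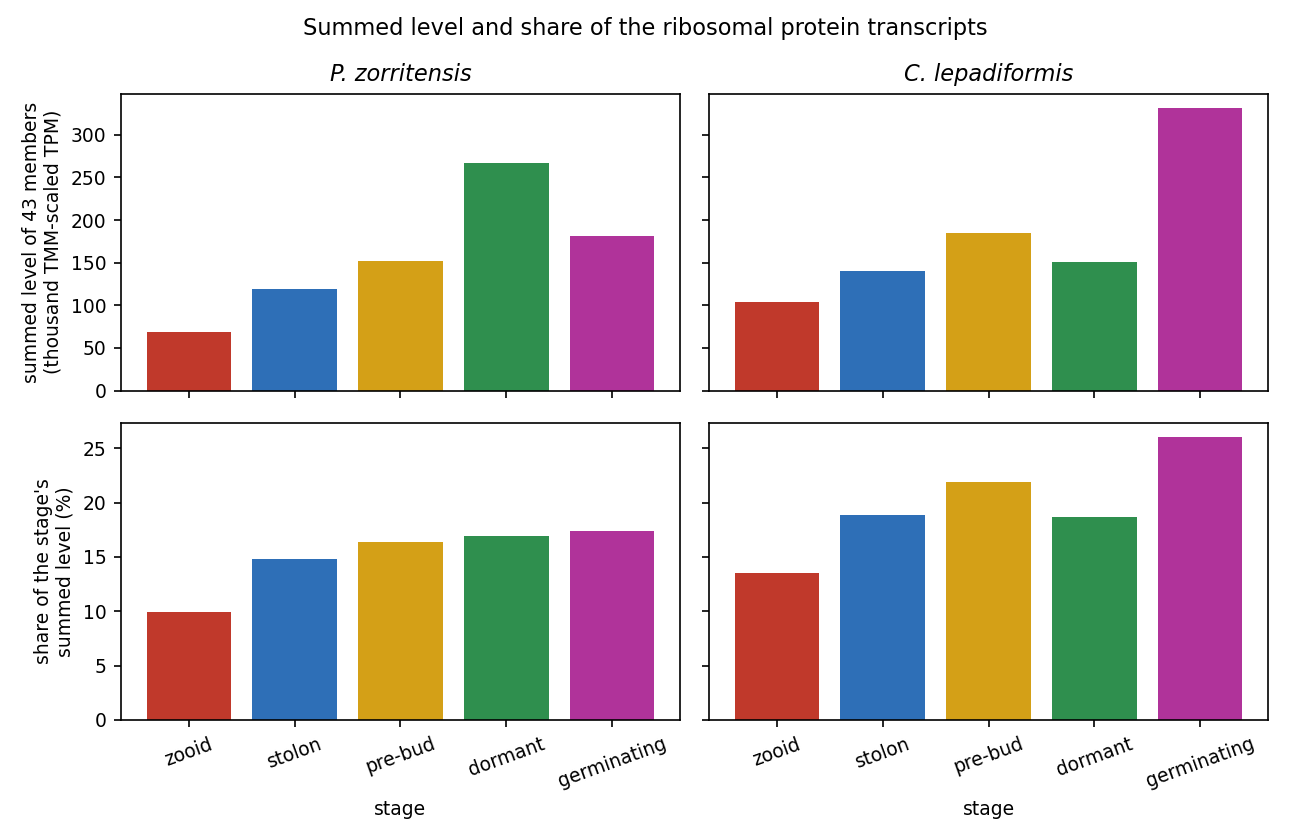
Bars give the summed level of the 43 members (top, TMM-scaled TPM as on the axis) and their share of the summed level of the stage (bottom, in percent) by stage in each species. The dormant bar of *P. zorritensis* is the tallest as a level (266425) but its share (17.0%) is near that of pre-buds (16.3%) and germinating spherules (17.4%).

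The rank order of members was shared in part between the species for levels, and hardly for stage ratios. Over 41 structural members that reached 5 in both species, Spearman's correlation of levels between the species lay between 0.48 in stolons and 0.65 in germinating structures. For the 4 ratios it lay between -0.04 and 0.11. These are descriptions over 41 genes that share libraries and are not independent replicates. For dormant over pre-bud, 38 of the 41 were above 0 in *P. zorritensis* and below 0 in *C. lepadiformis*, and none the other way round. For germinating over dormant, 40 of the 41 were below 0 in *P. zorritensis* and above 0 in *C. lepadiformis*. Both counts are on the deposited scale, and the rescaling to equal sums turned both *P. zorritensis* medians. The dormant sum used there includes the 1 transcript that made up 9.24% of it, and no rescaling left that transcript out. On dormant over zooid 40 had the same sign in both. None of these counts was made over all ortholog pairs. The deposited medians over pairs that reached 5 were -0.21 in *P. zorritensis* and -0.12 in *C. lepadiformis* for dormant over pre-bud. For germinating over dormant they were 0.19 and -0.06.

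**Figure D5:**
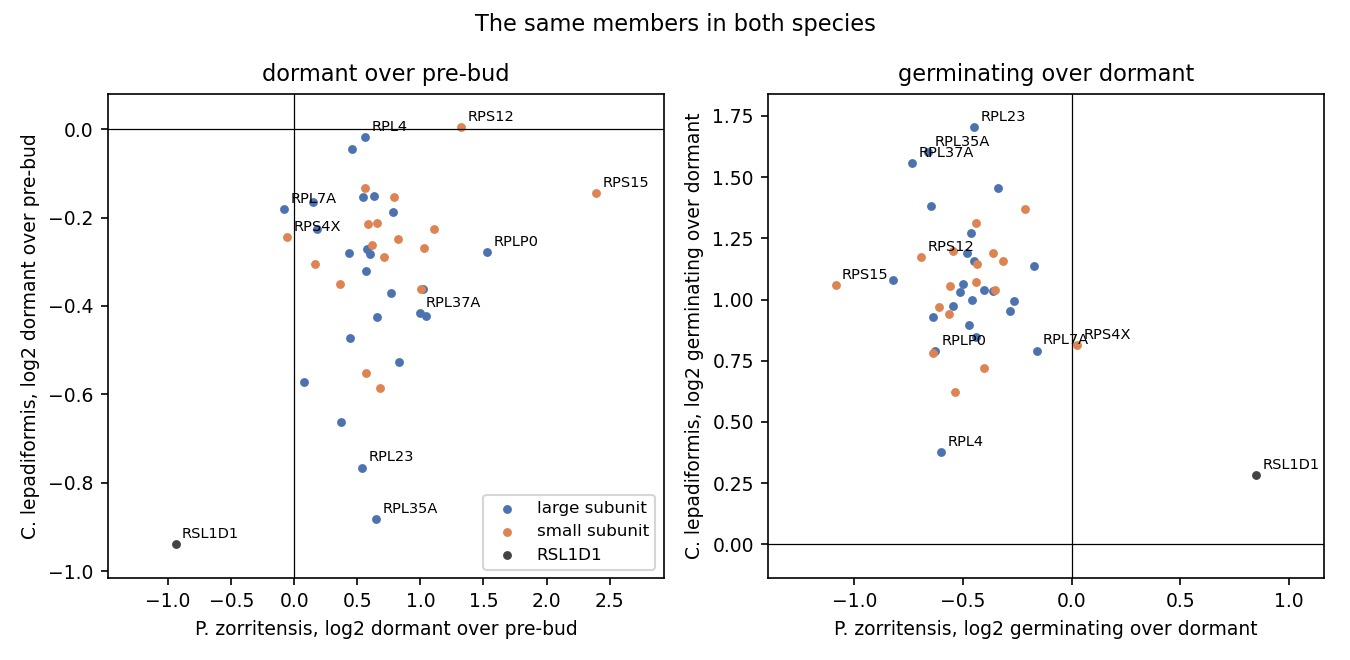
Each point is 1 member with a mean of at least 5 in both species, with its log2 ratio in *P. zorritensis* on the x axis and in *C. lepadiformis* on the y axis, for dormant over pre-bud (left) and germinating over dormant (right). The structural points gather in the lower right and the upper left quadrant. On the deposited scale 38 and 40 of 41 lie on opposite sides of 0. The *P. zorritensis* medians turn to -0.14 and 0.13 when stages are rescaled to equal sums. Opposite signs were not counted over all ortholog pairs.

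A few members were assembled as more than 1 abundant transcript. The same assembled gene held another transcript averaging at least 100 TMM-scaled TPM for RPL27A, RPL5, RPL6 and RPS7 in *P. zorritensis* and for RPL4 in *C. lepadiformis*. The 4 *P. zorritensis* ratios of dormant over zooid for these other transcripts were 1.96, 2.21, 1.49 and 2.14, near those of the members. For RPL27A and RPL6 the other transcript was the more abundant in every stage, at 9420.0 in dormant spherules against 2414 in zooids for RPL27A, and at 4557 in dormant spherules against 1625 in zooids for RPL6. The level of the member alone therefore understates all 5 of these genes. RPL4 lines the tunnel through which the new peptide leaves. Its other *C. lepadiformis* transcript had 1008 in zooids, 1303 in stolons, 1842 in pre-buds, 1507 in winter buds and 2823 in germinating winter buds. Its germinating-to-dormant ratio was 0.90, and the sum of both transcripts gave 0.64 where the member alone gave 0.38. The low ratio of RPL4 therefore depends on how reads were divided between its transcripts.

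RSL1D1 had levels far below those of the structural proteins. In *P. zorritensis* it had 8.24 in zooids, 7.23 in stolons, 16.2 in pre-buds, 7.96 in dormant spherules and 15.2 in germinating spherules, with pre-buds and germinating spherules about level. In *C. lepadiformis* it had 26.1 in zooids, 15.6 in stolons, 27.7 in pre-buds, 14.0 in dormant winter buds and 17.2 in germinating winter buds. Its dormant mean was below its pre-bud mean in both species (-0.94 in each).

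Ribosome assembly factors were counted from a list of 138 entries, of which 57 had a pair, and medians of this and the later lists are over all pairs of a list. The 57 include RSL1D1, which therefore enters the medians of both the list and the members. In dormant against zooid *P. zorritensis* 8 of 42 that reached a mean of 5 (19.0%) were 2-fold higher, near the 19.9% of all transcripts, and none was 2-fold lower, beside 27.7% of all transcripts. They had a median of 0.43, or -0.56 with stages rescaled to equal sums, where the ribosomal proteins had 1.80 and 0.61. Against pre-buds 1 of 47 was 2-fold higher and 5 were 2-fold lower, beside 16.8% and 16.3% of all transcripts, with a median of -0.29, or -0.86 rescaled. The factors lower than in pre-buds included NUCL (nucleolin, the main nucleolar protein), with 147 in pre-buds, 67.0 in dormant spherules and 209.8 in germinating spherules. GAR1, part of the particle that modifies ribosomal RNA, had 87.0 in pre-buds, 34.4 in dormant spherules and 93.9 in germinating spherules. RPF1, in yeast an assembly factor of the large subunit, was the 1 that was 2-fold higher, with 11.5 in pre-buds, 30.2 in dormant spherules and 14.0 in germinating spherules. In germinating against dormant spherules 6 of 50 assembly factors (12.0%) were 2-fold higher and 1 (2.00%) 2-fold lower, beside 12.7% and 14.4% of all transcripts. Their median was 0.43, where the ribosomal protein median was -0.46. Rescaled to equal sums, these medians were 0.91 and 0.13.

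In *C. lepadiformis* assembly factors had a median of -0.50 for dormant over zooid, with 4 of 57 (7.02%) 2-fold lower, beside 22.5% of all transcripts. Against pre-buds the median was -0.60 with 6 of 56 (10.7%) 2-fold lower, beside 7.81% of all transcripts. None was 2-fold higher in dormant winter buds in either comparison, beside 16.8% and 7.85% of all transcripts. NUCL had 64.1 in dormant winter buds against 118 in pre-buds, and GAR1 had 50.7 in dormant winter buds against 121 in pre-buds. For germinating over dormant the median was 0.09, where the ribosomal protein median was 1.04. None passed 2-fold in either direction, beside 9.22% of all transcripts higher and 7.25% lower. Rescaled, the medians were -0.50 for the assembly factors and 0.38 for the ribosomal proteins. NUCL had 58.4 in germinating winter buds against 64.1 in dormant ones. The median of the assembly factors for germination thus lay above that of the ribosomal proteins in *P. zorritensis* and below it in *C. lepadiformis*. Rescaling a stage could change this order only through the added 1.

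The 3 elongation factor subunits with a pair, EF1B, EF1G and EF1D, reload the factor that brings tRNA to the ribosome. In *P. zorritensis* all 3 were at least 2-fold higher in dormant spherules than in zooids, stolons and pre-buds, beside 19.9%, 19.2% and 16.8% of all transcripts. Their medians were 2.61, 1.51 and 1.09, or 1.42, 0.55 and 0.33 rescaled to equal sums. The rescaled medians of the ribosomal proteins were 0.61, -0.04 and -0.14. For germinating over dormant spherules the elongation factor median was -0.92, or -0.33 rescaled, where the ribosomal protein medians were -0.46 and 0.13. At 2-fold 1 of the 3 was lower, beside 14.4% of all transcripts. EF1D had 163 in zooids, 292 in stolons, 398 in pre-buds, 1480.2 in dormant spherules and 711 in germinating spherules. In *C. lepadiformis* none of the 3 passed 2-fold. For dormant over zooid the median was 0.57, where 16.8% of all transcripts were 2-fold higher and 22.5% 2-fold lower. For germinating over dormant it was 0.92, where these shares were 9.22% and 7.25%.

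RNA polymerase I transcribes ribosomal RNA, and its list had 4 pairs, RPA1, RPA2, RPAC1 and the transcription factor UBF1. In each comparison 3 or 4 of them reached 5, and none differed 2-fold. Of all transcripts, 3.57% to 27.7% passed 2-fold in a given direction, and so few pairs cannot be set apart from that. A name pattern for mitochondrial ribosomal proteins took 20 pairs. It also took RT4I1, which is not a ribosomal protein. RT4I1 never reached 5, so it enters the medians of the 20 but not the counts. In the dormant-to-zooid comparison of *P. zorritensis* 16 reached 5. Of these 1 was 2-fold higher and none 2-fold lower, beside 19.9% and 27.7% of all transcripts. The median of the 20 was 0.13, or -0.92 rescaled to equal sums. None passed 2-fold in *C. lepadiformis*, where the median was -0.47 for dormant over zooid and 0.40 for germinating over dormant, the last being -0.20 when rescaled. Of all transcripts there, 16.8% were 2-fold higher and 22.5% lower for dormant over zooid, and 9.22% and 7.25% for germinating over dormant. A further 14 pairs bore the names of other messenger RNAs listed for the pyrimidine tract in vertebrates. The tract was not looked for in these tunicates. Of the 14, 3 (21.4%) were 2-fold higher and 2 (14.3%) 2-fold lower in dormant *P. zorritensis* spherules than in zooids. That was near the 19.9% and under the 27.7% of all transcripts. Their median was 0.01, or -1.14 rescaled. The dormant-to-zooid medians of these lists in *P. zorritensis* lay below that of the cytosolic ribosomal proteins. Rescaling a stage could change this order only through the added 1.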

How the data were processed

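RNA from 36 samples, 18 per species, was sequenced on an Illumina platform as paired-end libraries split over lanes. The authors cleaned and trimmed reads, used Bowtie2 to take out those of ribosomal RNA, assembled a transcriptome per species with Trinity, filtered contaminants and low transcripts, and quantified transcripts with kallisto. The deposited signal values are TPM scaled by TMM and averaged by the authors over the samples of a stage, with both germination temperatures together. There is no genome position for these assembled transcripts. The deposited table of pairs also holds the authors' calls of stages with higher or lower expression from a voom fit. These calls were not used, and all 4424 of the 4424 pairs carry one in each call column, so the pairs are transcripts already selected for differences between stages.

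Members were matched by transcript ID, and log2 ratios of stage means were computed after adding 1, with Python 3.11.15, pandas 2.3.3 and numpy 2.4.6. Transcripts entered the background where the higher of the stages compared had a mean of at least 5. Differences of at least 2-fold were counted. Planted differences in simulated stage means were used to check the calculation. With 1 mean per stage there is no test. Alternatives were pseudocounts of 0.1 and 5, a minimum mean of 20, a 1.5-fold threshold, 2 ways of rescaling stages, centring on all transcripts and narrower member sets. Named genes were the 5 highest members, the 4 highest and 4 lowest ratios of each comparison, RPLP0, RPS6, members opposite in direction to the median, and RSL1D1. The values of 1 member are included in all counts and medians but are not reported here by name. Assembly factors named with values, RPL35A, RPL23 and RPS23 in detail, and the level range of other transcripts were chosen after their values were seen. The members and lists were chosen with earlier results of these data known. The lists of assembly factors, elongation factors, RNA polymerase I genes and other pyrimidine-tract messenger RNAs were written by hand from general knowledge.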

Additional observations from a re-analysis of the deposited data

Results flagged for a closer look

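The median ratios of the members had opposite signs in the 2 species in 2 comparisons. For dormant over pre-bud *P. zorritensis* had a median log2 ratio of 0.61 and *C. lepadiformis* -0.28. For germinating over dormant *P. zorritensis* had -0.46 and *C. lepadiformis* 1.04. The difference between the species was not tested, since there was 1 mean per stage. With stages rescaled to equal sums, the *P. zorritensis* medians were -0.14 and 0.13, on the same side of 0 as those of *C. lepadiformis* at -0.21 and 0.38. All transcripts moved as well. The median of the members minus that of all transcripts was then 0.57 in *P. zorritensis* and -0.25 in *C. lepadiformis* for dormant over pre-bud. For germinating over dormant it was -0.38 and 0.99. These distances have opposite signs, but rescaling a stage could change them only through the added 1. Their signs are therefore no separate check of the scale. The summed level of dormant *P. zorritensis*, 1570747, and of germinating *C. lepadiformis*, 1274782, were the highest of their species, and their part in the result was not tested. The dormant *P. zorritensis* sum includes the 1 transcript that made up 9.24% of it. No rescaling left that transcript out, so its part in the turned medians was not tested either.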

How the results depend on the processing

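Of 88 alternative medians over the 8 comparisons, 75 stayed within 0.1 of the value as deposited and 13 did not. The 75 include 8 values from taking 1 pair per human name and 8 from requiring the same name in both species. Both settings kept all 43 members, so these values could not differ. A minimum mean of 5 also kept all 43 in *P. zorritensis*. Each of the 2 rescalings kept 2 of its 8 medians within 0.1. Rescaling each stage to a sum of 1000000 gave 0.61 for dormant over zooid, -0.041 for dormant over stolon, -0.14 for dormant over pre-bud and 0.13 for germinating over dormant in *P. zorritensis*, and -0.020 for dormant over stolon and 0.38 for germinating over dormant in *C. lepadiformis*. Rescaling to the sum of the other transcripts, chosen after seeing the data, gave 0.73, -0.0040, -0.13 and 0.14 in the same 4 *P. zorritensis* comparisons, and -0.024 and 0.51 in those 2 of *C. lepadiformis*. Centring on all transcripts gave 1.95 for dormant over zooid in *P. zorritensis*. RPS4X in dormant over zooid of *P. zorritensis* was -0.085 under the first rescaling, against 1.11 as deposited. The first rescaling also left 7 members highest in dormant *P. zorritensis* in place of 40, and 32 highest in germinating *C. lepadiformis* in place of 41. All transcripts moved with the members, because a rescaling multiplies every transcript of a stage by the same factor. In *P. zorritensis* the median of the members minus that of all transcripts was 1.85 in place of 1.95 for dormant over zooid. For germinating over dormant it was -0.38 in place of -0.44. These differences come from the added 1 alone.

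At 1.5-fold, 36 members were higher in dormant spherules than in stolons in place of 19, and 23 than in pre-buds in place of 8. At that threshold 12 were lower in germinating than in dormant spherules in place of 1, 14 were higher in dormant winter buds than in *C. lepadiformis* zooids in place of 0, and 40 were higher in germinating than in dormant winter buds in place of 25. The share of all transcripts at 1.5-fold was not counted. These counts therefore show only how the number of members depends on the threshold. The structural members alone, the members without RPL5, other pseudocounts and minimum levels kept every median within 0.1. No paired analysis was possible because the files analysed hold the authors' means of each stage. For the same reason no sample could be left out, so nothing here shows how far the means vary between samples.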

Other observations

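In *P. zorritensis* members with a higher average level tended to have a higher ratio of dormant to zooid, with a Spearman correlation of 0.43 over the 41 structural members that reached 5 in both species. In *C. lepadiformis* the same description for germinating over dormant gave 0.62. The average level contains both stages of the ratio and the members share libraries, so these are descriptions of the same values.

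Relative to zooids, the median structural member of *P. zorritensis* stood at 1.78-fold in stolons, 2.24-fold in pre-buds, 3.49-fold in dormant spherules and 2.40-fold in germinating spherules. In *C. lepadiformis* it stood at 1.35-fold in stolons, 1.79-fold in pre-buds, 1.45-fold in dormant winter buds and 2.95-fold in germinating winter buds.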
